A study of Mus musculus with 29 samples.

Results

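The 38 genes described here encode the machinery with which a presynaptic terminal stores, docks, releases and retrieves synaptic vesicles. They were listed by symbol for their known roles by a rule that uses no measured value, although the list was drawn up with earlier results of these data known, and all 38 were found among the 18240 genes of the deposited table, from Snap25 and Vamp2 to Slc17a8. Expression was measured by bulk RNA sequencing of prefrontal cortex from C57BL/6J mice of both sexes at postnatal day 40, in 29 libraries. Mice heterozygous for the K228E allele of Tbr1 (Tbr1+/K228E, here HT), which encodes a transcription factor of deep-layer cortical neurons, had received vehicle (3 females, 3 males), fluoxetine (4 females, 4 males) or lithium (3 females, 4 males). Wild-type mice (WT; 4 females, 4 males) were given vehicle and no drug, which leaves the drugs unmeasured on a WT background. Fluoxetine is a serotonin reuptake inhibitor and lithium a mood stabiliser. Dose, route, duration of treatment and litter are not in the labels, nor is any statement on whether a library held tissue of 1 animal or more, so p-values measure the spread between these libraries.

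In a terminal, vesicles filled with transmitter are held in clusters by synapsins, docked at the active zone by scaffold proteins, primed by Munc13 and RIM proteins, and fused with the plasma membrane by SNARE proteins when a synaptotagmin binds calcium. Membrane and vesicle proteins are then taken back by clathrin and dynamin and reused. In cerebral cortex most excitatory terminals load glutamate with VGLUT1, the product of Slc17a7, whereas VGLUT2 (Slc17a6) belongs mostly to axons from subcortical neurons such as those of the thalamus.

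No member passed the limma test (adjusted p under 0.05 over 17881 genes) in any of the comparisons of genotype or drug, and for most members the intervals were narrow. A bound of 0.3 was set after the data were seen. In HT vehicle against WT vehicle the 95% interval lay wholly between -0.3 and 0.3 on the log2 scale for 33 of 38 members. The 5 others, Slc17a6, Slc17a8, Sv2c, Syt2 and Unc13c, are among the 7 members of lowest level per kilobase. Members nearest to the threshold were Syt7 and Dnm1 for genotype, and Syt4 for HT lithium against WT vehicle. Below, a level is the read count of a gene divided by the size factor of its library (normalised read count), and a difference is a log2 fold change of log2(value + 1), as the mean of the difference in females and in males. Because the tissue is bulk, fewer cells of a type and less RNA per cell cannot be told apart.

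Levels per kilobase of exon spanned from 9887 for Snap25, the plasma membrane SNARE, to 22.02 for Slc17a8, the vesicular transporter VGLUT3 found in scattered non-glutamatergic neurons. After Snap25, the highest per kilobase were Slc17a7 (7919), the complexin gene Cplx1 (7624), the vesicle SNARE gene Vamp2 (7573), the vesicle membrane protein gene Syp (7288), the membrane fission GTPase gene Dnm1 (6844) and the vesicle GTPase gene Rab3a (6596). The lowest after Slc17a8 were Syn3 (36.0), Unc13c (71.8), Syt2 (99.1), Sypl (101.1), Slc17a6 (112) and Sv2c (140). Within families 1 paralogue led in each case on the per-kilobase scale. Syn1 (5011) lay above Syn2 (2129) and Syn3, Syt1 (5533), the sensor of fast release, above Syt11 (3739) and Syt2, and Vamp2 above Vamp1 (284). Sv2a (2865) lay above Sv2b (2181) and Sv2c, Rims1 (1025) above Rims2 (297), Unc13a (1320) above Unc13c, and Slc17a7 above Slc17a6. Without division by the annotated exon length, Sv2b (18280) lay above Sv2a (13280). All 38 members passed the filter on low values, and the smallest recovered read count of any member in any library was 49, for Slc17a8.

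**Figure D1:**
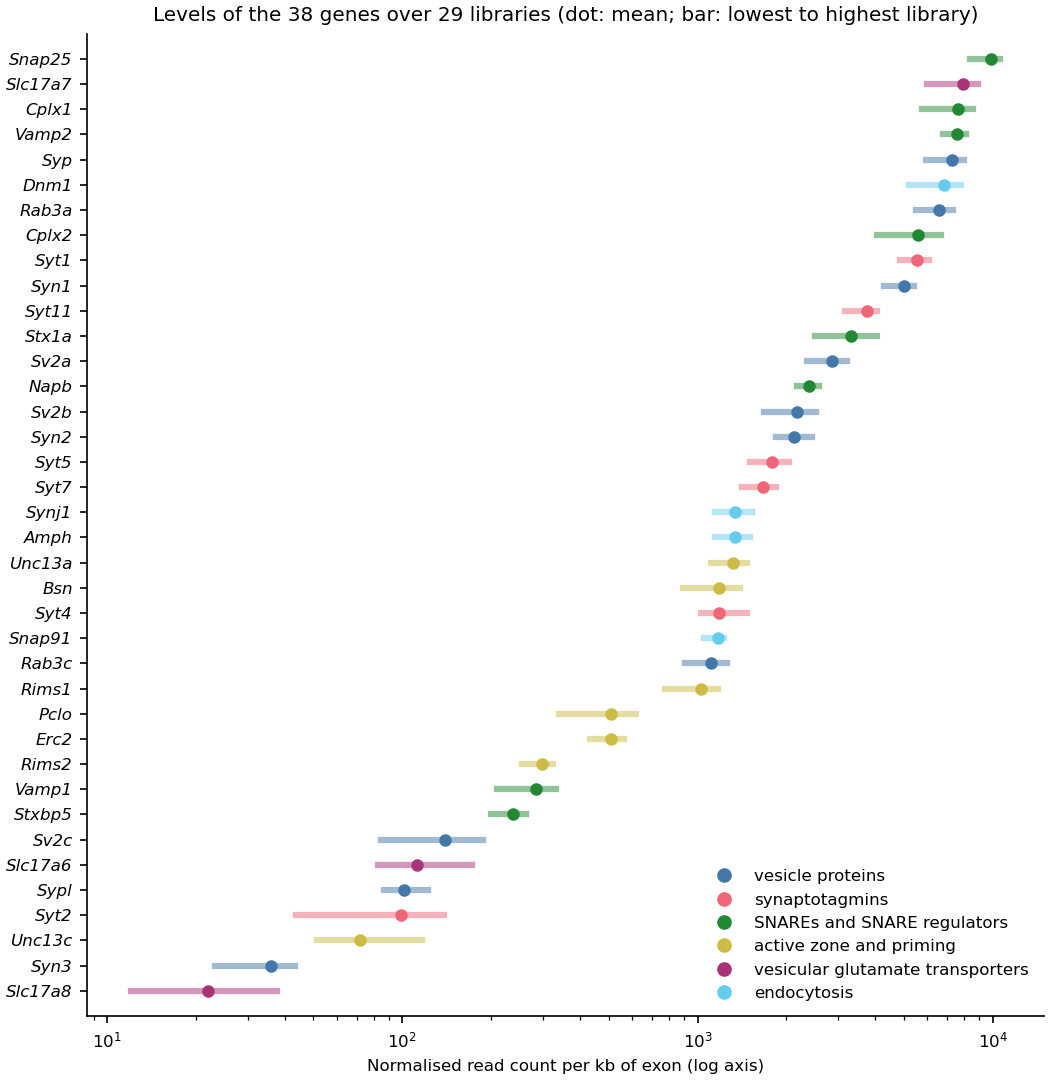
Level of each of the 38 genes as normalised read count per kilobase of exon (log axis), with the mean over 29 libraries as a dot and the range from the lowest to the highest library as a bar, coloured by role. Snap25 stands highest at 9887 and Slc17a8 lowest at 22.02, and the bars of the lowest genes, such as Syt2 and Slc17a8, are the widest on this axis.

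Members varied about as much between libraries of a group as the genes within their wide range of levels did, which were not matched to them by level. The median within-group SD was 0.102 (log2) over the members, 0.132 over all genes tested and 0.101 over the 12480 genes whose mean lay between those of the lowest and highest member. Snap91, which encodes the clathrin adaptor AP180, had the smallest SD (0.0568), followed by Vamp2 (0.0641) and Napb (0.0644). Syt2 (0.405), Slc17a8 (0.364), Sv2c (0.302) and Unc13c (0.277) had the largest.

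Promoter sequence was compared because the members share a site of function but were not chosen by sequence. In RefSeq (GRCm38.p6) 31 of the 38 have a promoter entry, taken here as the 250 bases before the RefSeq start nearest to the annotated one. The GC box, the binding motif of Sp1-type factors (GGGCGG on either strand), occurred in 21 of these 31 (67.7%), against 32.7% of 32851 promoter entries of the same length. The median number of CpG dinucleotides was 15 in the members and 6 in all promoters, and the median GC content was 61.2% and 52.4%. A TATA box (TATAAA) occurred in 1 member, Sv2b (3.23%), against 12.4% of promoters, and the full cAMP response element (TGACGTCA) in 1 member, Syn1, against 1.55%. The RE1 motif of the neuronal repressor REST occurred in 0 of 31 windows and in 0.0335% of all. In each of these contrasts members count 1 entry per gene, whereas the background counts every entry, further starts of a gene included. The background was also not limited to genes expressed in this tissue, so the sets are unlike. Both strands were searched for each motif, none of the motifs contains another, and a match is a description of letters, not of a bound site. The 120 bases before the start are shown for Stx1a and Rab3a, a pair of members with a GC box there, and for Slc17a8, whose 250-base window had the fewest CpG (5), as an example without 1 in the stretch shown. GC boxes are in capitals, and each is printed 5′ to 3′ on the strand of its gene.
Stx1a (GRCm38.p6, chr5:135023362-135023481, plus strand): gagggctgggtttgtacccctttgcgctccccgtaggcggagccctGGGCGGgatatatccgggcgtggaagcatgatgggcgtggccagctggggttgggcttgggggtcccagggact
Rab3a (GRCm38.p6, chr8:70754583-70754702, plus strand): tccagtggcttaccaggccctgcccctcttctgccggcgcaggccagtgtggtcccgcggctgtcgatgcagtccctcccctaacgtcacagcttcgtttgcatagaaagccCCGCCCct
Slc17a8 (GRCm38.p6, chr10:89621250-89621369, minus strand): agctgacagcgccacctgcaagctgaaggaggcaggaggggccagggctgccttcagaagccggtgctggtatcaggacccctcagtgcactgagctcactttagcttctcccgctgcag
In Rab3a the capitals are the reverse complement of the motif.

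The 29 libraries held 22.81 to 31.71 M recovered reads each, and the labels place all in 1 batch. Of them, 4 stood apart in the members or in markers and are named here because results rest on them. The mean of the 38 members, each centred on its mean over all libraries, was lowest in HT fluoxetine female 1 (-0.196, log2), WT vehicle male 1 (-0.19) and WT vehicle male 3 (-0.16), and highest in HT fluoxetine female 2 (0.132). The same 3 libraries had the lowest mean of 8 pan-neuronal markers, genes such as Rbfox3 and Map2 that are not members (-0.290, -0.201 and -0.212). None of the 8 was at 0 in any library, and their summed level ranged from 78724 to 90867 in WT vehicle, 81804 to 89134 in HT vehicle, 76608 to 91290 in HT fluoxetine and 84187 to 91840 in HT lithium. In these 3 libraries the mean of 10 markers of olfactory areas was 1.64, 0.978 and 1.73 above its mean over all libraries, but 5 other libraries lay above the second of these values too, at 0.993 to 1.24, with member means of -0.0317 to 0.0129. The summed olfactory markers ranged from 3439 to 22997 in WT vehicle, 5595 to 15947 in HT vehicle, 3717 to 20871 in HT fluoxetine and 2689 to 12300 in HT lithium. Summed striatal markers ranged from 6511 to 25521 in HT fluoxetine and from 6765 to 8512 in HT vehicle, and no marker of either list was at 0 in any library. The part of neuronal or neighbouring-tissue content in the members' differences was not tested beyond the fits with marker means as covariates and without these libraries, which are given beside the results they change.

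The fourth library, HT fluoxetine male 4, was set apart by transcript length. Its 19 members with more than 7206 bases of exon had a median of -0.218 (log2, centred) and its 19 shorter members a median of 0.071. That long-minus-short difference of -0.289 compares with -0.0755 to 0.0913 in the other 28 libraries. Over the 12498 genes in the members' range of levels the same difference was -0.176 in this library and -0.0489 to 0.0814 in the others. The long scaffold gene Pclo was at 7611 in this library and between 10861 and 13951 in the other 7 HT fluoxetine libraries. Syn3 was at 284.5 there against 425.0 to 530.4 in the others. Its read total lay within the range of the other libraries, and RNA quality was not tested. The member mean of HT fluoxetine male 4 was -0.1055, so the 4 libraries that stand apart have the 4 lowest member means. Leaving them out raises the members in HT fluoxetine and in WT vehicle through that choice. Such fits show dependence on these libraries and are not an independent check.

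**Figure D2:**
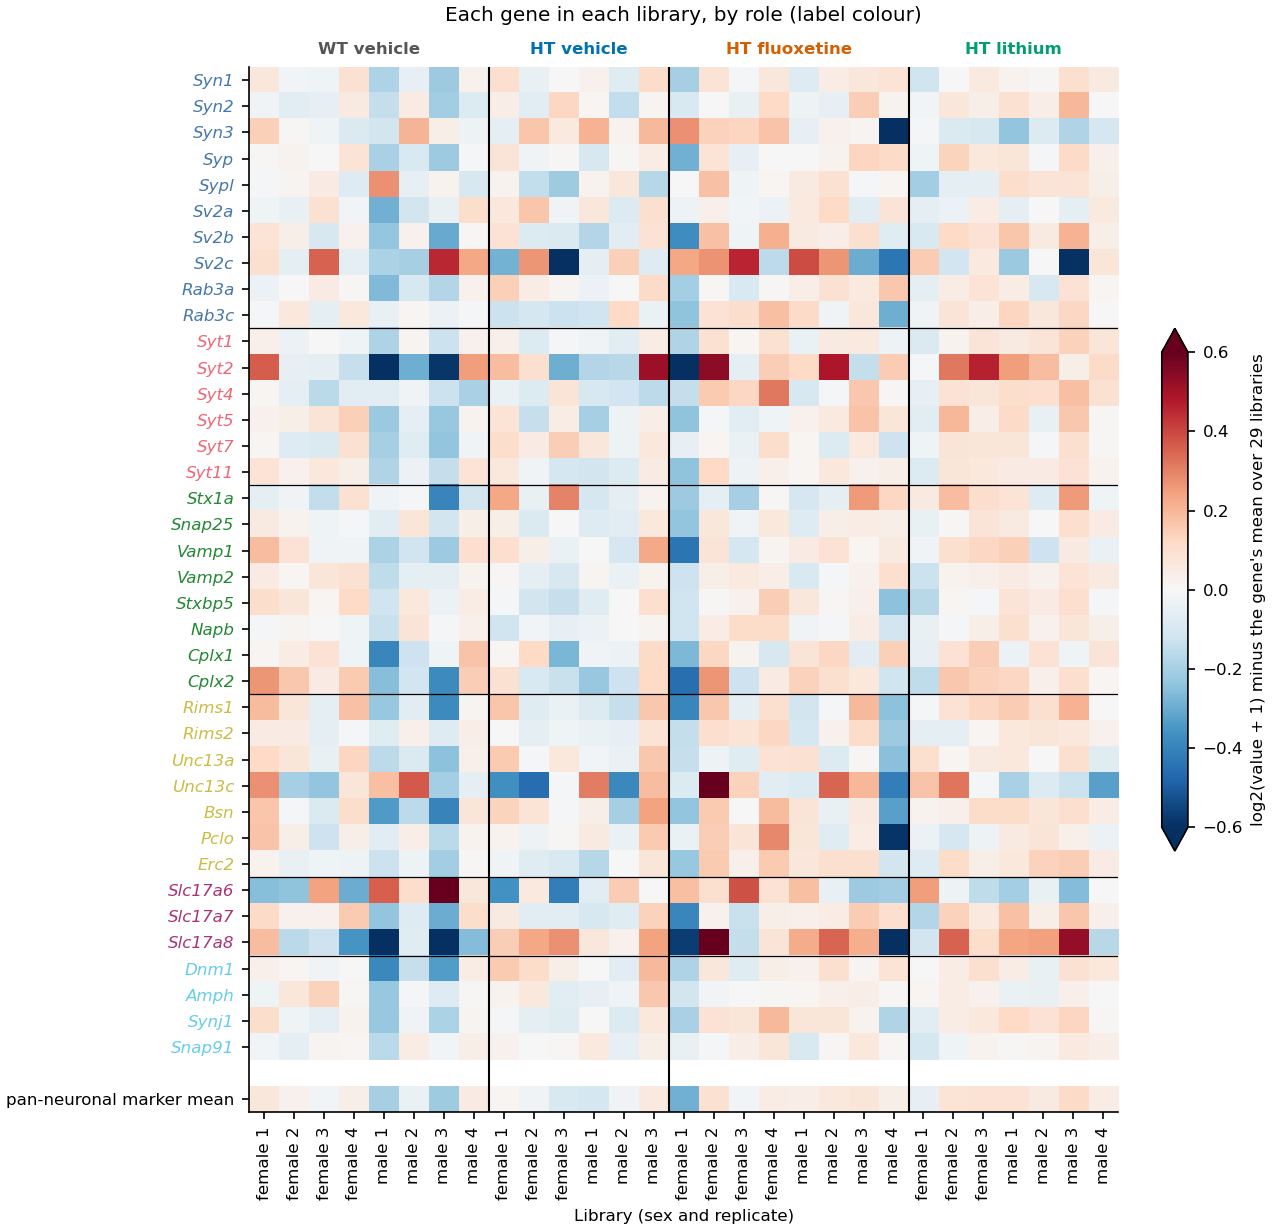
Each of the 38 genes (rows, label colour by role) in each library (columns, by arm, sex and replicate), as log2(value + 1) minus the mean of the gene over 29 libraries; the bottom row is the mean of 8 pan-neuronal markers on the same scale. The columns of HT fluoxetine female 1 and WT vehicle males 1 and 3 are mostly blue together with their marker mean, and in HT fluoxetine male 4 the long genes Pclo, Syn3 and Unc13c are blue while short ones such as Rab3a are not.

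The genotype comparison asked whether the release machinery differs in carriers without a drug. In HT vehicle (n = 6) against WT vehicle (n = 8), 0 of 38 members were called, where limma called 0.207% of all genes tested. At an unadjusted p under 0.05 there were 5 members (13.2%), all higher in HT vehicle, against a background of 12.3%. That count was 3 (background 8.77%) without HT vehicle male 3, 8 with 6 higher and 2 lower (15.4%) without WT vehicle male 4, and 4 with 2 in each direction (9.43%) without the 4 libraries that stand apart. The median difference over the members was 0.021 with 25 of 38 positive, against a median of 0.0001 over all genes with 50.1% positive. The 5 members of smallest p were Syt7, Dnm1, Slc17a8, Rab3a and Stx1a.

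Syt7 encodes the synaptotagmin with slow, high-affinity calcium binding that serves asynchronous release and facilitation. Its level was 10620, 11860 and 13310 in WT vehicle (lowest, median, highest) and 12240, 13090 and 13850 in HT vehicle. It was 11460, 12380 and 13470 in HT fluoxetine and 12290, 13130 and 13380 in HT lithium. All 6 HT vehicle libraries lay above the WT median, but only 2 lay above the highest WT library, so the groups overlapped. The difference of HT vehicle from WT vehicle was 0.14 ± 0.041 (SE; 95% interval 0.058 to 0.22; limma adjusted p = 0.127), a 1.103-fold difference. In DESeq2 on the recovered reads, also chosen after the data were seen, it passed (0.14, adjusted p = 0.0411), and in edgeR 0 members did. Syt7 lies at chr19:10389090-10453180 (GRCm38).

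Dnm1 (chr2:32308471-32353338) encodes dynamin 1, the GTPase that severs endocytic vesicles from the membrane. Its level was 27360, 35570 and 36920 in WT vehicle, 34100, 37690 and 41020 in HT vehicle, 31490, 36590 and 38260 in HT fluoxetine, and 34720, 36960 and 38250 in HT lithium. The lowest WT values came from males 1 and 3 (27357 and 28410), the libraries with low pan-neuronal markers, and 3 of 6 HT vehicle libraries lay above all of WT. The difference was 0.17 ± 0.055 (SE; limma adjusted p = 0.182). With the pan-neuronal marker mean as a covariate, an alternative chosen after the data were seen, Dnm1 and Syt7 passed (0.16, adjusted p = 0.0140, and 0.14, adjusted p = 0.0354). Without the 4 libraries that stand apart they did not (0.091, adjusted p = 0.530, and 0.099, adjusted p = 0.398). Without WT vehicle male 4 Dnm1 passed at 0.21 (adjusted p = 0.0373). The share of all genes called in the alternatives that Dnm1 or Syt7 passed is not given here.

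Slc17a8 (chr10:89574020-89621253) had the largest difference and the fewest reads. Its level was 56.8, 86.7 and 115 in WT vehicle, 103, 115 and 122 in HT vehicle, 57.7, 112 and 177 in HT fluoxetine, and 89.5, 119 and 145 in HT lithium. HT vehicle libraries were close together, with 3 of 6 above all of WT, while WT males 1 and 3 were lowest (56.8 and 59.1) and the fluoxetine libraries spread over the whole range. The difference was 0.46 ± 0.18 (SE; 95% interval 0.085 to 0.84; limma adjusted p = 0.287), and it was 0.31 (adjusted p = 0.493) without the 4 libraries that stand apart. With the striatal and olfactory marker means as covariates it passed at 0.52 (adjusted p = 0.0481).

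Stx1a (chr5:135023482-135051100), the plasma membrane syntaxin, was at 6677, 8539 and 9371 in WT vehicle and at 8195, 8732 and 10820 in HT vehicle. It was at 7556, 8439 and 10510 in HT fluoxetine and at 8341, 9297 and 10480 in HT lithium. HT vehicle females 1 and 3 (10343 and 10823) were the only HT vehicle libraries above the highest WT value, and the groups overlapped. The difference was 0.14 ± 0.069 (SE; limma adjusted p = 0.399). Rab3a, a vesicle GTPase that binds RIM proteins, averaged 14080 ± 1037 (SD, n = 8) in WT vehicle and 15170 ± 727 (SD, n = 6) in HT vehicle, a difference of 0.11 ± 0.044 (SE; limma adjusted p = 0.292).

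By role, the medians of the genotype differences were small, while single members such as Slc17a8 (0.46) lay further from 0. Vesicle proteins had a median of 0.054 with 7 of 10 positive, from -0.20 for Sv2c to 0.11 for Rab3a. Synaptotagmins had a median of 0.019 (4 of 6 positive), and active zone and priming genes a median of 0.034 (5 of 7 positive), with the scaffold gene Bsn at 0.13. The 4 endocytosis genes were all positive (median 0.033). SNAREs and their regulators had a median of -0.022 with 3 of 8 positive, and the core fusion genes Snap25 and Vamp2 stood at -0.019 and -0.024, with 95% intervals of -0.11 to 0.076 and -0.10 to 0.053. Slc17a7, the main cortical glutamate transporter gene, stood at 0.0047 (95% interval -0.13 to 0.14) and Slc17a6 at -0.18 (-0.39 to 0.024). The member median turned to -0.027, with 16 of 38 positive, without the 4 libraries that stand apart, which include the WT vehicle libraries of lowest member mean. The 7 cortical excitatory markers, which are not members and include Tbr1, were all positive (median 0.11), with summed levels of 104940 to 145811 in WT vehicle and 125042 to 150518 in HT vehicle. Layer markers were divided: 5 of 8 layer 5 markers were positive (median 0.16), and 0 of 9 layer 6 and subplate markers were (median -0.097, 0 at an unadjusted p under 0.05). Lower in HT vehicle were 8 of 8 endothelial markers (median -0.13, 5 at an unadjusted p under 0.05), 7 of 8 microglial (median -0.13), 8 of 8 oligodendrocyte (median -0.14) and 6 of 8 astrocyte markers (median -0.14; 1 called in each direction). The part of these cell types in the members' differences was not tested.

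**Figure D3:**
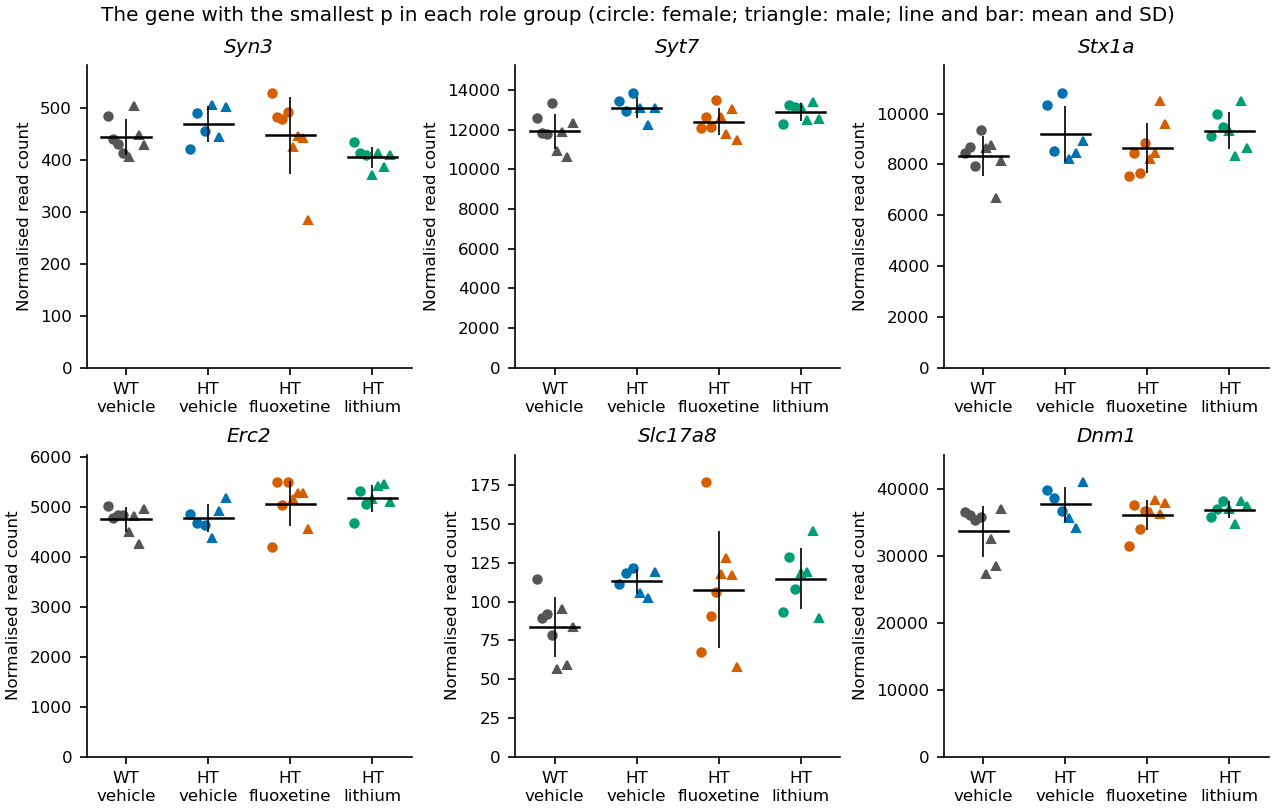
Normalised read count (from 0) of the gene with the smallest p in each role group, per library in the 4 arms, with circles for females, triangles for males, and the mean and SD as a line and bar. The arms overlap for each gene; all 6 HT vehicle libraries of Syt7 and Slc17a8 lie above the WT median of 11860 and 86.7, and the lowest Dnm1 points are WT males.

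The fluoxetine comparison, between the HT arms with and without the drug, asked how these genes stand in treated carriers. Of 38 members 0 were called, and limma called 0% of all genes tested. At an unadjusted p under 0.05 there were 2 members (5.26%), both higher, against a background of 7.81%. Leaving out each library gave 1 to 5, with the most (3 higher, 2 lower, background 8.92%) without HT vehicle female 2. Leaving out the 4 libraries that stand apart gave 10, all higher (background 14.7%), but those include the fluoxetine libraries of lowest member mean. The median difference was 0.012 with 21 of 38 positive, against -0.0044 and 47.8% over all genes. For 33 members the 95% interval lay between -0.3 and 0.3. The comparison shares the HT vehicle libraries with the genotype comparison, so the differences of a gene in both are linked through them.

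The smallest p belonged to Syt4, an atypical synaptotagmin found on dense-core and neuropeptide vesicles. Its level was 4106, 4307 and 4833 in HT vehicle, 4153, 4802 and 5707 in HT fluoxetine, 4430, 4890 and 5196 in HT lithium, and 4007, 4370 and 4625 in WT vehicle. Of the 8 fluoxetine libraries 4 lay above all of HT vehicle, of the 7 lithium libraries 5 did, and the remaining fluoxetine libraries (female 1 and males 1, 2 and 4) lay among the vehicle values. The fluoxetine difference was 0.13 ± 0.051 (SE; limma adjusted p = 0.548), and it was 0.18 (adjusted p = 0.0761) without the 4 libraries that stand apart. On the opposite strand a gene model, Gm26658, overlaps 14.5% of the exon bases of Syt4, at a mean level of 5.69 of its own, and the strand setting of the counting is not given in the sources used here.

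The other members of small p under fluoxetine were Sypl, a synaptophysin relative (0.11 ± 0.052 SE, limma adjusted p = 0.632), Syt7 (-0.081 ± 0.041, adjusted p = 0.636), and the Munc13 priming genes Unc13a and Unc13c. Unc13a stood at -0.10 ± 0.052 (SE; limma adjusted p = 0.647), with levels averaging 17260 ± 1088 (SD, n = 6) under vehicle and 16120 ± 1260 (SD, n = 8) under fluoxetine. Unc13c stood at 0.22 ± 0.14 (SE; 95% interval -0.062 to 0.50; limma adjusted p = 0.711) on 581 ± 134 (SD) and 680 ± 171 (SD), with HT fluoxetine female 2 (1027) the highest of all 29 libraries. Its interval was the widest among the active zone genes and includes 0.

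The median over the synaptotagmins was 0.028, over SNAREs and their regulators 0.025 (6 of 8 positive), over vesicle proteins 0.0055 (5 of 10), over active zone genes -0.037 (3 of 7) and over endocytosis genes -0.015 (1 of 4). Slc17a7 stood at 0.00044, on 42050 ± 2749 (SD) under vehicle and 42240 ± 4656 (SD) under fluoxetine. Without the 4 libraries that stand apart the member median was 0.052 with 29 of 38 positive and 0 called, and the smallest adjusted p was that of Rab3c, a vesicle GTPase (0.16, adjusted p = 0.0655), followed by Erc2 and Syt4. Rab3c was at 10917 in HT fluoxetine male 4 and 11325 in female 1, and between 13179 and 15153 in the other 6 fluoxetine libraries. The 12 striatal markers were all positive under fluoxetine (median 0.70). Their part in the members' differences was not tested, and with striatal and olfactory marker means as covariates the member median was -0.018 with 0 called.

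The lithium arm was compared with the same HT vehicle libraries. Of 38 members 0 were called, as were 0% of all genes tested, and 3 (7.89%) reached an unadjusted p under 0.05 against a background of 11.4%. Leaving out each library gave 2 to 5, with 5 (background 14.6%) without HT lithium female 1 and 2 (background 7.95%) without HT lithium female 3. It was 7 (14.9%) without the 4 libraries that stand apart. None of those 4 is in either arm, so the differences stayed the same and only the estimate of spread shared by all groups changed. The member median was 0.052 with 27 of 38 positive, against -0.0037 and 48.4% over all genes. All 8 SNAREs and their regulators were positive, from 0.00089 for Vamp1 to 0.12 for Cplx2, with a median of 0.047 and none called. The synaptotagmin median was 0.081 (5 of 6 positive), and the 4 endocytosis genes had a median of -0.014 (1 of 4).

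Syt4 again had the smallest p (0.15 ± 0.053 SE; limma adjusted p = 0.309), with all 7 lithium libraries above the HT vehicle median of 4307. Syn3 (chr10:86055125-86498896), the least abundant synapsin, went the other way. Its level was 421, 475 and 507 in HT vehicle, 372.5, 411 and 435 in HT lithium, 406, 436 and 505 in WT vehicle, and 284.5, 463 and 530.4 in HT fluoxetine. Of 7 lithium libraries 6 lay below all 6 HT vehicle libraries, and the highest of them, lithium female 1 at 434.8, overlapped with vehicle female 1 at 421.4. The difference was -0.20 ± 0.079 (SE; 95% interval -0.37 to -0.043; limma adjusted p = 0.350). Without the 4 libraries that stand apart, none of them in either arm, it stayed at -0.20. Its limma adjusted p was then 0.0865, through the shared estimate of spread. Timp3 lies within Syn3 on the opposite strand and shares 14.1% of its exon bases, at a mean level of 2853 against 442 for Syn3, so reads of the pair could be confused if strand was not used in counting.

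Rab3c stood at 0.13 ± 0.060 (SE; limma adjusted p = 0.432), on 12790 ± 900 (SD) under vehicle and 13970 ± 546 (SD, n = 7) under lithium. Syt5, linked to dense-core vesicle release, stood at 0.092 ± 0.055 (SE; limma adjusted p = 0.528), on 4144 ± 315 and 4416 ± 316 (SD). Erc2, which encodes the active zone scaffold CAST, was at 4367, 4770 and 5173 in HT vehicle, 4662, 5145 and 5458 in HT lithium, 4201, 5211 and 5492 in HT fluoxetine, and 4255, 4824 and 5005 in WT vehicle. Its lithium difference was 0.11 ± 0.055 (SE; 95% interval -0.0039 to 0.22; limma adjusted p = 0.450), with 3 of 7 lithium libraries above all vehicle libraries. With the pan-neuronal marker mean as a covariate it was 0.023. That marker mean was 0.0603 ± 0.0527 (SD) in HT lithium and -0.029 ± 0.0619 (SD) in HT vehicle, and with it as a covariate the member median under lithium was -0.0245. Of the 10 olfactory markers 9 were lower under lithium (median -1.27, 5 at an unadjusted p under 0.05), and with striatal and olfactory marker means as covariates the member median was -0.0133.

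**Figure D4:**
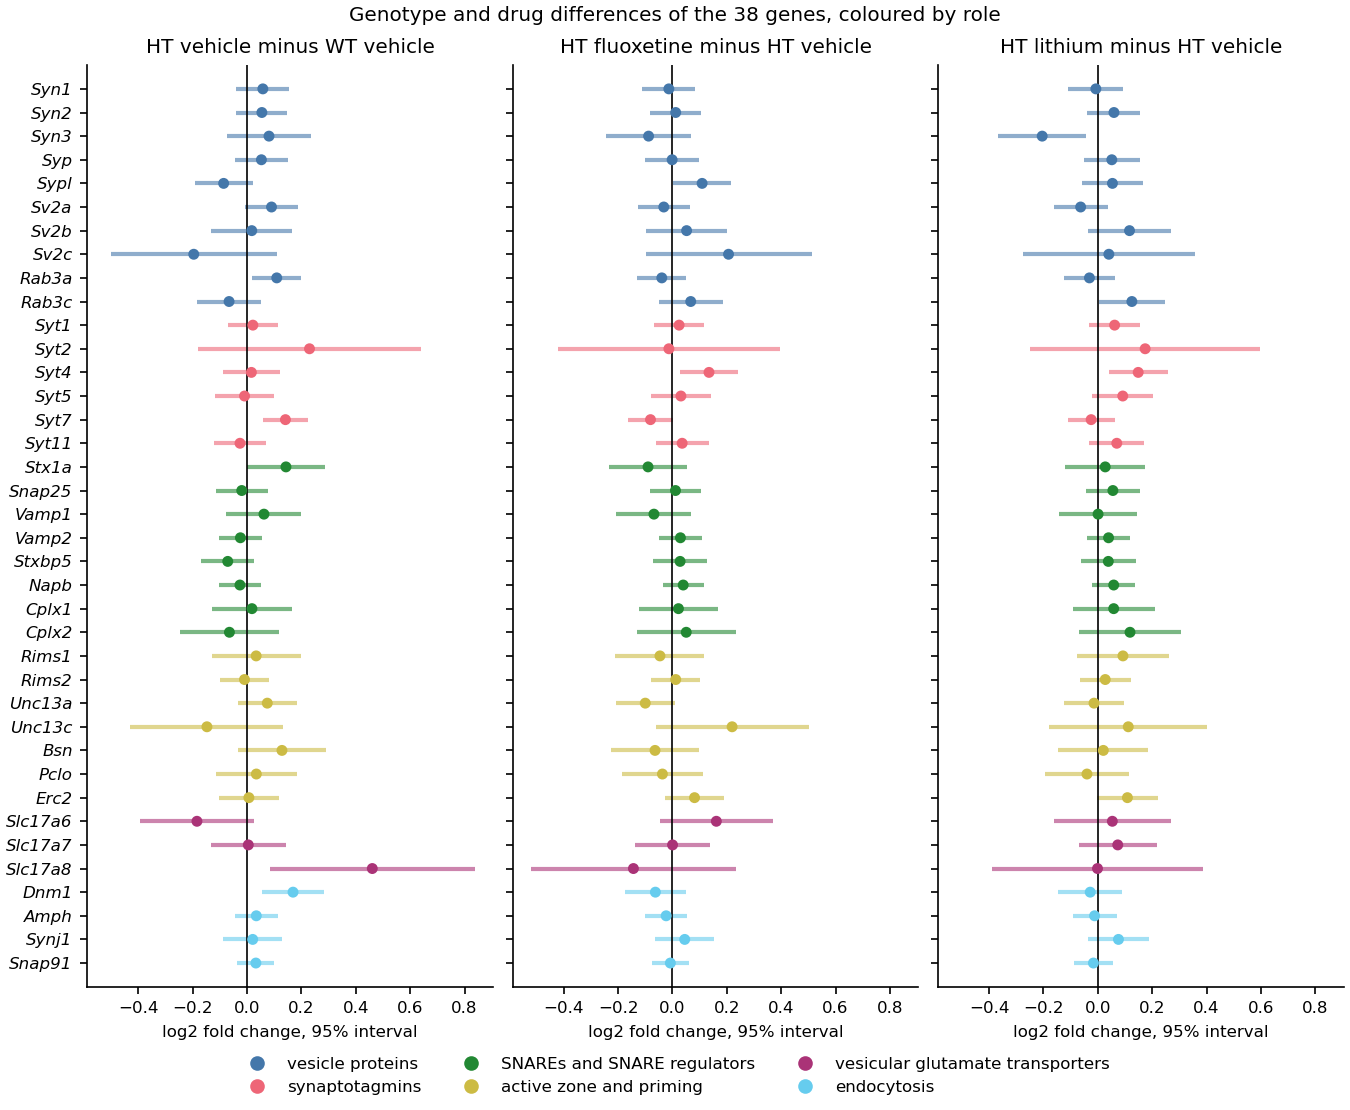
Log2 fold change (dot) and 95% interval (bar) of each of the 38 genes for HT vehicle minus WT vehicle, HT fluoxetine minus HT vehicle and HT lithium minus HT vehicle, coloured by role. Most intervals span 0 and lie between -0.3 and 0.3; the widest belong to Syt2, Slc17a8, Sv2c and Unc13c, and Syn3 under lithium lies at -0.20.

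The drugs were compared with each other, and each drug group of HT with WT vehicle. Between lithium and fluoxetine 0 members were called and 0% of all genes tested, and 0 members had an unadjusted p under 0.05, against 3.5% of all genes (0 to 2 when each library was left out). The member median was 0.034 with 30 of 38 positive, and without HT fluoxetine female 1 it was -0.00035 with 19 positive. HT fluoxetine against WT vehicle gave 0 members called (all genes 0.19%) and 2 at an unadjusted p under 0.05 (5.26%, background 9.26%). These were Syt4 (0.15 ± 0.047 SE; limma adjusted p = 0.254) and Dnm1 (0.11). Without HT fluoxetine female 1, Syt4 passed at 0.19 (adjusted p = 0.0190), 10 members had an unadjusted p under 0.05, all higher (background 15.3%), and the member median was 0.051 with 34 of 38 positive. Leaving out each other library gave 1 to 6, the most (background 12.5%) without WT vehicle male 4, and leaving out the 4 that stand apart gave 5 (background 8.66%).

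HT lithium against WT vehicle was the comparison with the most calls over all genes (1.9%), and 0 members were among them. At an unadjusted p under 0.05 there were 9 members (23.7%), all higher in HT lithium, against a background of 18.6%. That count was 5 (background 14.7%) without WT vehicle male 3, 14 (21.3%) without HT lithium female 1 and 15 (22.9%) without WT vehicle male 4. It was 3, of which 1 was lower (12.3%), without the 4 libraries that stand apart. The member median was 0.062 with 31 of 38 positive, against -0.0046 over all genes. Syt4 was nearest to the threshold at 0.16 ± 0.049 (SE; limma adjusted p = 0.0809), with 6 of 7 lithium libraries above all 8 WT libraries. After it came Syt7 (0.12, adjusted p = 0.115), Dnm1 (0.14, adjusted p = 0.155), Slc17a8 (0.46, adjusted p = 0.164), Syn2 (0.11), Stx1a (0.17), and then Erc2, Syp and Syt2 (0.40). All 6 synaptotagmins were positive (median 0.10). These values share their WT libraries with the genotype comparison, in which Syt4 stood at 0.016 and Dnm1 at 0.17. Syt4 passed in DESeq2 on the recovered reads (adjusted p = 0.0411), with only the compared groups in the fit (adjusted p = 0.0259), and with library weights, in which Syt7 and Dnm1 passed too. Syt4 also passed without HT fluoxetine female 1 (adjusted p = 0.0229). That library is in neither arm, so leaving it out changed the shared estimate of spread and not the difference. Without WT vehicle male 4, Dnm1 (0.18, adjusted p = 0.0268) and Syt7 (0.14, adjusted p = 0.0466) passed. The share of all genes called in these alternative fits is not given here. Without the 4 libraries that stand apart the member median was 0.018 with 25 of 38 positive, and with the pan-neuronal marker mean as a covariate it was -0.0125. Markers moved in the same comparison: 9 of 10 olfactory markers were lower (median -1.13), 8 of 8 layer 5 markers and 7 of 7 cortical excitatory markers were higher (medians 0.20 and 0.25, 2 called in each list), and 1 endothelial and 1 astrocyte marker were called lower. Their part in the members' differences was not tested beyond the fit with striatal and olfactory marker means as covariates, which gave a member median of 0.00991.

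Sexes were compared by the difference of the differences. For genotype, 0 members and 0% of all genes were called, and 1 member (2.63%) had an unadjusted p under 0.05 against 5.6% of genes, Vamp2 (-0.17, limma adjusted p = 0.847). Leaving out each library gave 0 to 5, the most (background 9.92%) without WT vehicle male 4. The member median was -0.036 in females with 11 of 38 positive, and 0.082 in males with 32 of 38 positive. In 35 of 38 members the female difference was the lower one, and the median of female minus male was -0.13, against -0.0040 over all genes. Syt4, Stx1a and Slc17a6 were the 3 others. Cplx2, a complexin, stood at -0.20 in females and 0.074 in males, and Syt2, the fast sensor of parvalbumin-type inhibitory terminals, at -0.035 and 0.49. The pattern moved with single males of both genotypes. The median of female minus male was -0.0796 without HT vehicle male 3 and -0.158 without WT vehicle male 4. Member means were -0.088 ± 0.103 (SD, n = 4) in WT males and 0.017 ± 0.0345 (SD, n = 4) in WT females. They were -0.013 ± 0.038 (SD, n = 3) in HT vehicle females and 0.0035 ± 0.0777 (SD, n = 3) in HT vehicle males. Pan-neuronal marker means were -0.10 ± 0.128 (SD) in WT males against 0.028 ± 0.0351 (SD) in WT females. The cause of the pattern was not tested. Without the 4 libraries that stand apart, of which 2 are WT males, the median of female minus male was -0.041 with 25 of 38 negative, and with the pan-neuronal marker mean as a covariate it was -0.011.

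**Figure D5:**
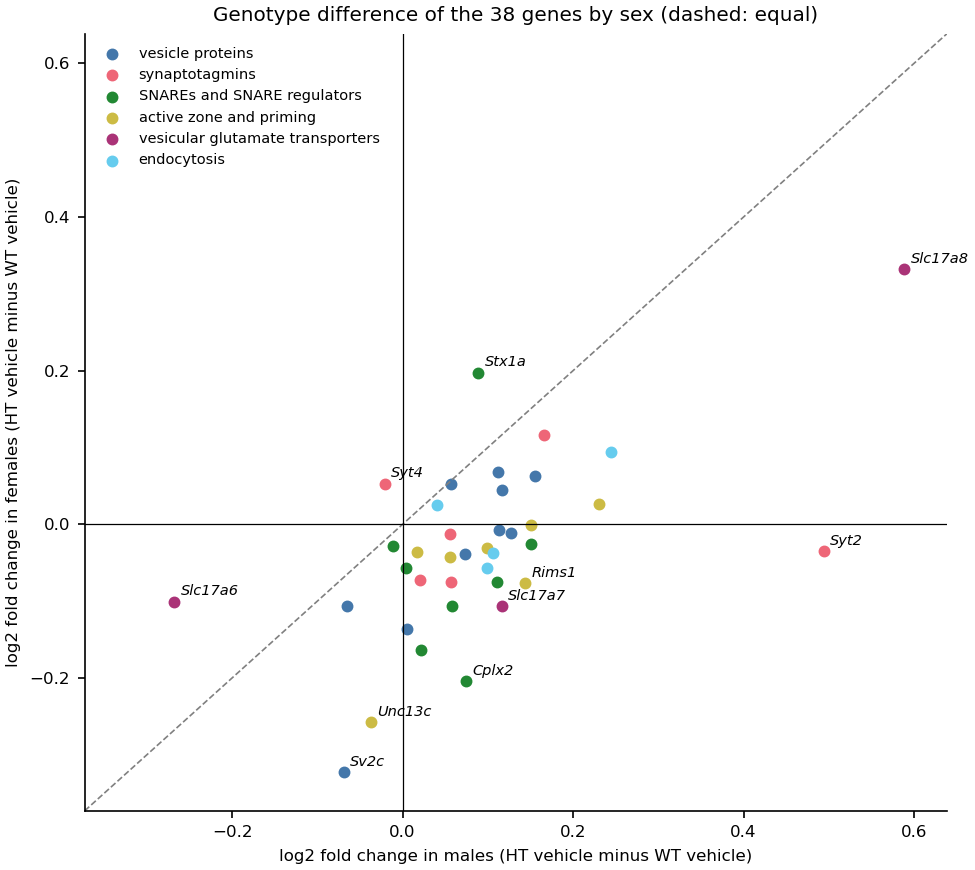
Log2 fold change of HT vehicle minus WT vehicle in females (vertical) against males (horizontal) for the 38 genes, coloured by role, with equality dashed. Most points lie under the dashed line: in 35 of 38 the female value is lower, and Syt4, Stx1a and Slc17a6 lie above it.

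For fluoxetine, the difference between the sexes was called in 0 members and in 0.106% of all genes, and 6 members (15.8%) had an unadjusted p under 0.05, 3 in each direction, against a background of 13.6%. Without HT fluoxetine female 1 there were 6 higher and 1 lower (background 12.4%) and the member median turned from -0.028 to 0.064, and without the 4 libraries that stand apart there were 5 higher and 1 lower (9.83%). Without HT fluoxetine male 4, HT vehicle female 1 or HT vehicle male 1 there were 3 (background 10.2% to 10.9%). Higher in females than in males were Syn3 (0.42 ± 0.15 SE; limma adjusted p = 0.222), Slc17a6 (0.52) and Pclo (0.31). Lower were Stx1a (-0.38 ± 0.14; adjusted p = 0.225), Syt5 (-0.23) and Rab3a (-0.20). Without HT fluoxetine male 4 the value of Syn3 was 0.27 (adjusted p = 0.401), that of Slc17a6 0.48 and that of Stx1a -0.36. At an unadjusted p under 0.05, 2 members were then higher and 1 was lower. Pclo was at 12012, 10861, 11767 and 7611 in HT fluoxetine males 1 to 4, so its value of 0.31 rests in part on male 4. Stx1a under fluoxetine was 7556, 8443, 7662 and 8837 in females 1 to 4 and 8201, 8435, 10507 and 9576 in males 1 to 4. For lithium, 0 members and 0% of all genes were called, and 1 member (2.63%, background 2.92%), Unc13c, had an unadjusted p under 0.05 (0.66; limma adjusted p = 0.9997), with 0 to 2 when each library was left out.

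Other presynaptic genes, a list of 63 that holds further synaptotagmins, SNARE partners, scaffolds, the GABA vesicle transporter and endocytic genes, were read beside the members, and 62 were in the table. For genotype 1 of 62 was called (all genes 0.207%), Bin1, which encodes the endocytic protein amphiphysin 2 (0.15 ± 0.030 SE; limma adjusted p = 0.0313), and 43 were positive (median 0.019). Ppfia4, a liprin scaffold gene, stood at 0.24 ± 0.055 (adjusted p = 0.0583). For fluoxetine and for lithium against vehicle in HT 0 of 62 were called, with medians of 0.0028 and 0.037. In HT lithium against WT vehicle 3 of 62 rose (all genes called 1.9%), the endophilin gene Sh3gl1 (0.15 ± 0.035; adjusted p = 0.0236), Bin1 (0.12 ± 0.029; adjusted p = 0.0325) and the RIM-binding protein gene Rimbp2 (0.22 ± 0.059; adjusted p = 0.0485), and 0 fell. At an unadjusted p under 0.05 there were 18 higher and 2 lower (32.3%, background 18.6%). Its median was 0.079 with 46 positive, beside 0.062 for the members.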

How the data were processed

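The deposited table gives, per the submitters' processing notes, values made with Salmon 0.11.2, R 3.6.0 and DESeq2 1.19.11 on GRCm38, whose order and settings are not given in the sources used here, nor are the annotation release and the strand setting of the counting. The libraries were stranded poly(A) libraries per the labels' protocols. The deposited values are a signal, read counts that the authors divided by 1 size factor per library: dividing each library by its smallest step gave whole reads for 100% of values (within 0.01 read), with 22.81 to 31.71 M reads per library. Exon lengths came from GENCODE M21 (18227 of 18240 genes matched) and promoters from RefSeq.

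Values were tested as log2(value + 1) with limma 3.58.1 in R 4.3.3, with 8 group means (genotype, treatment and sex; 21 residual degrees of freedom), a mean-variance trend and two-sided tests. A gene entered the tests (17881 did) if 3 or more libraries had a value of 10 or higher, and p-values were adjusted by Benjamini-Hochberg over all of them at a threshold of 0.05. The fit was checked on simulated data. Alternatives were DESeq2 1.42.0 and edgeR 4.0.16 with recovered reads as input, other filters, pseudocounts and scalings, marker covariates, a replicate block and leaving out libraries.

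The members and lists were chosen with earlier results of these data known. Named with full statistics were the 5 members of smallest p in the genotype comparison and in each drug against vehicle within HT, and in each role group the member of smallest p with its levels. Other members named for a high or low value were chosen after their values were seen. Cplx4, of the other presynaptic genes, was not analysed here.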

Additional observations from a re-analysis of the deposited data

Results flagged for a closer look

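Among 152 combinations of a member and an arm, 14 had a highest or lowest library whose gap to the nearest other library was a large share of the range of the arm (Dixon's 95% criterion). Chance gives such a gap in about 1 in 20 groups, and members of a library are not independent.

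In HT lithium female 1 the normalised read count of Syn1 was 15190 against 16540 in the nearest library, that of Syt11 18380 against 19710, that of Vamp2 26330 against 29280, that of Stxbp5 3494 against 3885, that of Slc17a7 37660 against 43400. In HT fluoxetine male 4 the normalised read count of Syn3 was 284.5 against 425 in the nearest library, that of Pclo 7611 against 10860. In HT fluoxetine female 1 the normalised read count of Syp was 31060 against 36650 in the nearest library, that of Syt2 333.1 against 661.9, that of Syt11 16440 against 19040, that of Vamp1 2123 against 2672, that of Amph 5615 against 6001. In WT vehicle male 1 the normalised read count of Sypl was 1018 against 870.1 in the nearest library. In HT vehicle male 2 the normalised read count of Rab3c was 14530 against 13010 in the nearest library. HT lithium female 1 and HT fluoxetine female 1 held 5 of these each and were the lowest library in each case, HT fluoxetine male 4 held 2, and WT vehicle male 1 and HT vehicle male 2 held 1 each, as the highest library.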

How the results depend on the processing

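For fluoxetine or lithium against vehicle within HT, for lithium against fluoxetine, and for the 3 differences between sexes, 0 members were called under each alternative run. Members were called elsewhere as follows. For genotype, 1 was called with striatal and olfactory marker covariates (Slc17a8), 2 with the pan-neuronal covariate (Syt7 and Dnm1), 1 by DESeq2 (Syt7), and 0 to 1 when each library was left out. For HT fluoxetine against WT vehicle, leaving out each library gave 0 to 1. For HT lithium against WT vehicle, 3 were called with library weights (Syt4, Syt7 and Dnm1), 1 with only the compared groups (Syt4), 1 by DESeq2 (Syt4), and 0 to 2 when each library was left out. The cause was not tested. The share of all genes called in each of these fits is not set beside these counts. They are therefore not a result about the members as a set. No value changed sign past the threshold. edgeR, DESeq2, the pan-neuronal covariate and the fits without 3 or 4 libraries were chosen after the data were seen. So were the bound of 0.3 on the intervals and the split of members by transcript length. Scalings moved the median of all genes by at most 0.0146 in size. With the replicate block 0 members were called in each comparison. The labels tie no number to a litter or day, and the deviations of 94 same-numbered pairs of libraries had a median correlation of -0.0137 against 0.00439 in 273 other pairs, and 4 of 29 libraries were closest to their own number. The 3 HT vehicle females carry other numbers in the table's column names than in their titles, and a replicate block by the column names also called 0 members (median correlation -0.0014 in 92 pairs). Genes of few reads, such as Slc17a8 with 49 to 179 per library, had the widest intervals.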
